A study of Mus musculus with 19 samples.

Results

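Of 45037 probe sets on a mouse expression array, control probe sets left aside, 9160 (20.3%) had no gene symbol in the annotation of the array platform. They are described here one by one and as a class, beside the 34945 probe sets with 1 symbol, and 932 probe sets with several symbols were counted only among all probe sets. The rule for a member used the annotation alone and no measured value. A probe set that the annotation leaves unlisted is unnamed here, which does not mean that it lies outside a gene. The RNA came from dendrites cut from hippocampal neurons of E18 mouse embryos after 14 days in dispersed primary culture, and it went through several rounds of amplification before it was labelled. The samples were 5 arrays of the inbred strain Balb/c (pools of 100, 100, 200, 400 and 400 dendrites) and 14 arrays of the strain C57BL/6 (4 pools of 100 dendrites, 5 of 200 and 5 of 400). No drug, transgene or deletion was used. The pools are labelled as biological replicates. It was not stated whether pools of the same strain derive from separate animals or cultures. The p-values therefore measure a spread between pools that may be technical. In pooled dendrites, fewer dendrites from 1 kind of cell and less RNA per dendrite cannot be told apart. Arrays are named by strain, pool size and replicate, and every value is log2 expression.

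A probe set is a group of short DNA probes that read 1 stretch of transcript, usually near its 3′ end. Arrays of this kind were designed from clusters of cDNAs and expressed sequence tags, and many such clusters were never tied to a named gene. Unnamed probe sets can read the far 3′ ends of known mRNAs, introns kept in a transcript, noncoding or antisense RNA, or sequence that is hardly transcribed. Dendrites hold only some of a neuron's RNAs, so many probe sets of a neuron's transcripts can be dim in them. The suffix of an ID states how unique the probes are. With _at the probes match 1 transcript, with _a_at several transcripts of 1 gene, with _s_at transcripts of several genes, and with _x_at some probes also resemble unrelated sequence. Probe and target sequences of the unnamed probe sets were not analysed here.

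Before the results, 3 arrays need mention because they stood between the strains. Over the 9160 unnamed probe sets, the correlation of C57BL/6 200-1 averaged 0.788 over Balb/c arrays and 0.765 over C57BL/6 arrays. The averages were 0.733 and 0.749 for C57BL/6 400-1 and 0.73 and 0.748 for Balb/c 200-1, with these 3 arrays left out of each average. Balb/c 400-2 came next, at 0.779 and 0.748. For the other 12 C57BL/6 arrays the means ran from 0.626 to 0.712 with Balb/c and from 0.812 to 0.885 with their own strain. The numbers of 9 arrays, all 5 of Balb/c and 4 of C57BL/6, were also written with more decimals than those of the other 10, which were all C57BL/6. This number format is treated as a batch, and its meaning is unstated in the sources used here. In Balb/c 2 of 9 measured markers of neurons and dendrites, Syn1 and Nrgn, lay above the background level defined below, and in C57BL/6 3 of 9, Rbfox3 being the third. Map2, the usual marker of dendrites, was at 6.72 and 7.95, below that level. The level of each marker is the median over the probe sets with its symbol, so a single brighter probe set may not show. None of 6 astrocyte and 5 oligodendrocyte markers lay above it in either strain, while 1 of 6 microglial markers and 1 of 4 endothelial markers did in both. Of 6 interneuron markers none did in Balb/c and 1 in C57BL/6, Gad1, at 8.42 and 10.6.

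The unnamed probe sets were not spread evenly over the array. In blocks of 1000 consecutive ID numbers, counting the 45 blocks with 500 or more probe sets, their share ran from 3.5% in the block that starts at 1418000 to 65.7% in the block that starts at 1446000. Over all blocks, in 22 they made up under 10%, and these held 1246 members (13.6%) but 19504 (55.8%) of the probe sets with 1 symbol. In 9 blocks they made up 40% or more, and these held 4710 members (51.4%) and 4206 (12%) of the probe sets with 1 symbol. By suffix, 8600 members (93.9%) ended in _at, 196 in _a_at, 112 in _s_at and 252 in _x_at. Of the probe sets with 1 symbol 77.2% ended in _at, so the unnamed class held fewer shared or ambiguous probe sets.

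Unnamed probe sets were close in level to named ones in Balb/c and dimmer than named ones in C57BL/6. Their median was 6.88 in the Balb/c arrays (SD 0.154, n = 5) and 6.5 in the C57BL/6 arrays (SD 0.129, n = 14). Set against the median of probe sets with 1 symbol in the same array, they lay on average at -0.0203 in Balb/c (SD 0.105) and at -0.276 in C57BL/6 (SD 0.0834). The Balb/c arrays were at 0.0304 (100-1), 0.0275 (100-2), -0.205 (200-1), 0.046 (400-1) and 0 (400-2). The C57BL/6 arrays ran from -0.409 (400-2) to -0.0817 (200-1). The strains therefore overlapped in 1 Balb/c array, 200-1, and the other 4 lay above every C57BL/6 array. In the 4 C57BL/6 arrays of the longer number format the mean was -0.201 (SD 0.0855), and in the 10 of the shorter format -0.306 (SD 0.0641). Within C57BL/6 the gap was -0.252 ± 0.0383 (SD, n = 4) at 100 dendrites, -0.226 ± 0.0943 (n = 5) at 200 and -0.345 ± 0.0549 (n = 5) at 400. The array of C57BL/6 with the smallest gap, 200-1, also had the smallest excess of the 3′ over the 5′ control probe set of Actb, 1.17, against 5.56 in 400-2, which had the widest gap. This excess, which reads how far amplified RNA falls short of the 5′ end, ran from -0.695 to 2.27 in Balb/c, and its part in the gap was not tested. The same excess for Gapdh did not follow the gap. It was 5 in C57BL/6 200-1, the highest of the 19 arrays, and 3.25 in C57BL/6 400-2, and it averaged 3.14 over Balb/c and 3.27 over C57BL/6.

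**Figure D1:**
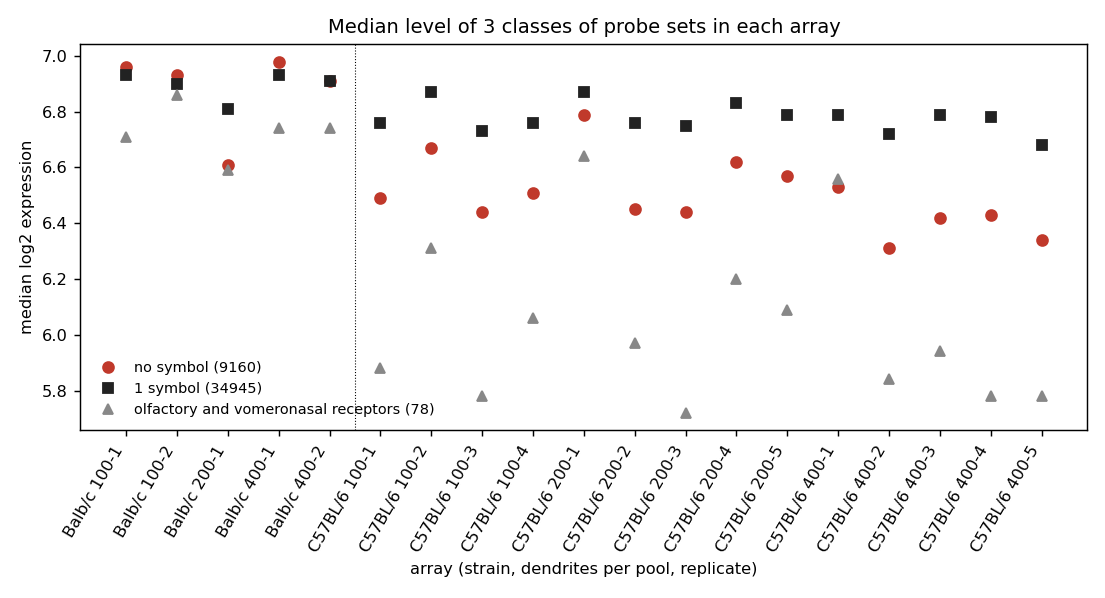
Median log2 expression in each of the 19 arrays for probe sets without a symbol (red circles), probe sets with 1 symbol (black squares) and 78 probe sets of olfactory and vomeronasal receptors (grey triangles), with the dotted line between Balb/c and C57BL/6. Red lies within 0.046 of black in 4 Balb/c arrays and below it in Balb/c 200-1 and in all 14 C57BL/6 arrays, and grey lies below red in every C57BL/6 array but 400-1.

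Probe sets of olfactory and vomeronasal receptors, whose genes are not known to work in hippocampal dendrites, served as a scale for background. Their 95th percentile was 9.22 in Balb/c and 8.83 in C57BL/6, taken over the mean of each strain's arrays. Above it lay 942 members (10.3%) in Balb/c and 937 (10.2%) in C57BL/6, of which 659 (7.19%) were above it in both strains, 283 in Balb/c but not C57BL/6 and 278 the reverse. A total of 7940 members (86.7%) lay above it in neither. Array by array the share of members above the level of that array was 10.9% ± 1.88 (SD, n = 5) and 10.7% ± 1.66 (SD, n = 14), so the strains did not differ beyond their spread. Among probe sets with 1 symbol 10.4% were above the level in Balb/c and 15% in C57BL/6. The receptors were themselves higher in Balb/c, with medians of 6.92 and 5.92, and limma called 31 of 78 (39.7%) higher.

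Among the brightest probe sets unnamed ones were represented nearly as often as on the whole array in Balb/c and less often in C57BL/6. Probe sets were ranked array by array, and by the median rank over the arrays of a strain the top 5% held 2252 probe sets, of which 441 (19.6%) were unnamed in Balb/c and 336 (14.9%) in C57BL/6. The share per array was 19% ± 2.01 (SD, n = 5), from 15.5% in Balb/c 200-1 to 20.7%, and 15% ± 1.57 (SD, n = 14), from 12.5% to 17.7%. A total of 284 unnamed probe sets stood in both lists, 64.4% of the Balb/c list and 84.5% of the C57BL/6 list. For probe sets with 1 symbol these shares were 72.2% and 69.3%. Of the unnamed probe sets in the C57BL/6 list 17% had a suffix other than _at, against 6.11% in the whole class.

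The 6 unnamed probe sets with the highest median rank over all arrays were 1432758_at, 1443474_at, 1447483_s_at, 1449436_s_at, 1446937_at and 1447484_x_at. For 5 of them the mean of each strain was between 15.02 and 15.71. 1432758_at, for example, averaged 15.71 over Balb/c (SD 0.0683, n = 5) and 15.64 over C57BL/6 (SD 0.161, n = 14; limma adjusted p = 0.799). These levels lay near the top of the scale, where the brightest probe set of all had a mean of 16 and little difference could show. The exception was 1449436_s_at, an ambiguous probe set by its suffix, which was at 10.9, 8.34, 15.3, 9.76 and 12.7 in the Balb/c arrays. In C57BL/6 it ran from 14 to 15.6 with a median of 15.3, and Balb/c 200-1 thus lay within the C57BL/6 range while the other 4 lay below it. It was lower in Balb/c by -3.9 ± 0.649 (SE) relative to the median probe set (adjusted p = 0.0005), and with the number format as a block by -3.24 (adjusted p = 0.0555). Here and below each p tests the difference as deposited against 0, which was -3.65 for this probe set without the block.

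The strain comparison asks how far 2 strains of 1 species differ, a yardstick for the differences between species that the study was about. In the limma fit over all 45037 probe sets 2838 unnamed probe sets (31%) were called at an adjusted p under 0.05, beside 32.9% of all probe sets and 33.1% of those with 1 symbol. The total is thus near the background, but the directions were not divided alike. Higher in Balb/c were 2339 members (25.5%), beside 21.3% of all probe sets and 20.3% of those with 1 symbol. Lower were 499 members (5.45%), beside 11.6% of all probe sets and 12.8% of those with 1 symbol. Of the called members 82.4% were therefore higher, against 64.8% over all probe sets. After quantile normalisation 74.1% of 2416 called members were higher and 54.3% over all, and after the range scaling of the study's methods 71.1% of 2401 and 51.5% over all. The median probe set was 0.25 higher in Balb/c, the median unnamed one 0.41 and the median with 1 symbol 0.21, so that relative to all probe sets the classes lay at 0.16 and -0.04. The 78 receptor probe sets, the scale for background, shared the upward direction. Of these, limma called 39.7% higher and 0 lower, with 37 higher and 0 lower at an unadjusted p under 0.05, and their median lay at 0.42 relative to all probe sets. In all, 6370 members (69.5%) had a positive difference as deposited, beside 61.2% of all probe sets. Without the 3 arrays that stood between the strains 3857 members (42.1%) were called, beside 43.6% of all probe sets. Of these members 3115 were higher (34% of the class, beside 28.5%) and 742 lower (8.1%, beside 15.2%). The 3 arrays were picked for standing near the other strain over these same probe sets. Leaving them out therefore favours more calls, and the rise is no support for the differences.

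With the threshold at 0.001 in place of 0.05, 139 members (1.52%) were higher, beside 1.24% of all probe sets, and 78 (0.852%) were lower, beside 2.48%. The arrays of the strains did not overlap for 86 members that were higher in Balb/c (0.939%), beside 0.757% of all probe sets, and for 13 that were lower (0.142%), beside 0.446%. Called members that were higher had a median size of 1.03 relative to all probe sets, and their median level was 7.65 in Balb/c and 6.33 in C57BL/6. Those that were lower had a median size of -1.8 and median levels of 6.26 and 7.99. In both strains 2042 of the higher (87.3%) and 348 of the lower members (69.7%) lay below the 95th percentile of the receptor probe sets. Of all members 86.7% did, so the share of the higher ones is near that of the class.

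A block for the number format leaves the comparison to the 9 arrays of the longer format, 5 of Balb/c and 4 of C57BL/6, and 104 members were then called. Of these 63 (0.688%) were higher in Balb/c, beside 0.542% of all probe sets, and 41 (0.448%) lower, beside 1.32%. All 104 had also been called, with the same sign, without the block. Within the 9 arrays of the longer format alone limma called 0 members, 0 of all probe sets. There 1067 members (11.6%) had an unadjusted p under 0.05 (862 higher and 205 lower). Of all probe sets 12.9% had one (3325 higher and 2494 lower). The median difference of the members was there 0.26 as deposited, and that of all probe sets 0.16. No Balb/c array had the shorter format, within which the strains could not be compared.

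The excess of higher over lower calls among unnamed probe sets was present in each of 5 groups by mean level. All probe sets were divided into 5 equal groups by their mean over the 19 arrays, and in each group the share called higher was larger for members than for probe sets with 1 symbol. It was 20.5% against 17.8% in the dimmest group, 30.9% against 23.8% in the middle one and 17.7% against 11.8% in the brightest. The share called lower was smaller in each group, from 2.46% against 4.32% in the dimmest to 11.5% against 27.5% in the brightest. The dimmest group held 23.5% of the members and the brightest 15.9%. Relative to all probe sets the median member differed by 0.12 in the dimmest group, 0.29 in the middle one and -0.14 in the brightest, where the median probe set with 1 symbol differed by -0.53. Above the receptor level in both strains, however, the share called higher was not larger for members, 9.26% against 9.58% of probe sets with 1 symbol. The share called lower was 3.19% there against 8.13%. Above it in neither strain 25.7% of members were higher against 21.2%, and 4.38% lower against 9.09%.

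**Figure D2:**
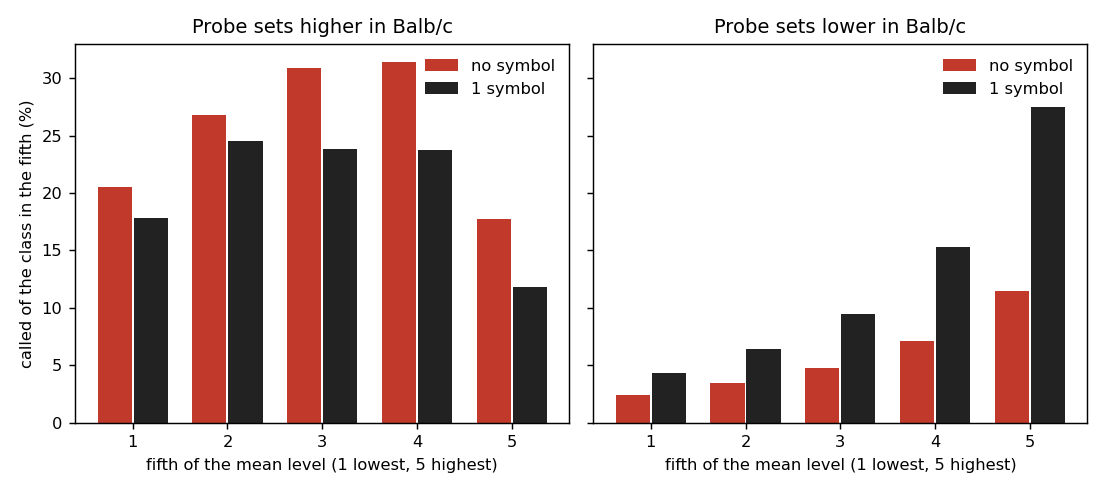
Share of probe sets called higher (left) or lower (right) in Balb/c, in percent of their class, within 5 equal groups by mean log2 level over 19 arrays, for probe sets without a symbol (red) and with 1 symbol (black). Red exceeds black in each group on the left and lies below it in each on the right, and the widest gap is in the brightest group on the right, 11.5% against 27.5%.

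Named probe sets that share ID blocks with many unnamed ones had a like split of directions. The groups of blocks were set after the shares in the blocks had been seen. In the 9 blocks with 40% or more unnamed probe sets, 27% of the members were called higher and 3.74% lower, while the named probe sets of the same blocks gave 25.1% and 6.23%. In the 22 blocks with under 10% unnamed, 21.7% of the members were higher and 12.4% lower, and the named ones gave 18.6% and 15.4%. In the 15 blocks between, 24.8% of the members were higher and 5.27% lower, and 21.4% and 10.9% of the named ones. Both classes thus had more higher and fewer lower calls where unnamed probe sets were common, and at each step the members had fewer lower calls than the named ones. Levels changed likewise. The median level was 6.52 for members and 6.57 for named probe sets in the blocks rich in unnamed ones, and 6.92 and 6.96 in those poor in them. After quantile normalisation the shares in the rich blocks were 20.5% higher and 5.05% lower for members and 19.6% and 7.66% for named probe sets. In 23 of 45 blocks the median member was dimmer than the median named probe set, in 31 the share called higher was larger for members and in 41 the share called lower was smaller.

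**Figure D3:**
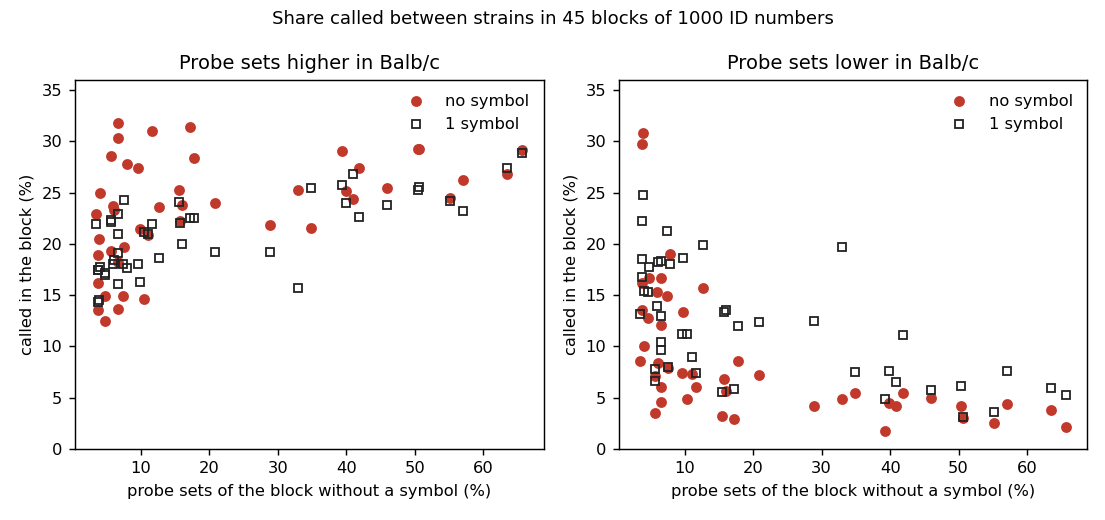
Each point pair is 1 of 45 blocks of 1000 consecutive ID numbers, placed by the percentage of its probe sets without a symbol, with the percentage called higher (left) or lower (right) in Balb/c for members (red circles) and probe sets with 1 symbol (black squares). Both classes rise together on the left and fall together on the right as the unnamed share grows from 3.5% to 65.7%, and circles scatter widely at the left end, where a block holds few members.

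By suffix, the surplus of higher over lower calls was found mainly among the members that end in _at. Of these 25.9% were higher and 4.43% lower, against 21.4% and 10.6% of the _at probe sets with 1 symbol. In the other 3 suffixes the directions were nearer to balance among the members, and among named probe sets for _a_at and _s_at. Named _x_at probe sets were more often lower than higher. The members had 32 higher and 41 lower of 196 for _a_at, 20 and 24 of 112 for _s_at and 58 and 53 of 252 for _x_at. As shares, 16.3% of the _a_at members were higher and 20.9% lower, against 16.7% and 18.4% of the _a_at probe sets with 1 symbol, and 17.9% and 21.4% of the _s_at members, against 16.4% and 19.7%. For _x_at the shares were 23% and 21% against 15.6% and 25.7%, so these members too were more often higher and less often lower than named ones. Relative to all probe sets the median _at member differed by 0.18, the median _a_at member by -0.21, the median _s_at member by -0.23 and the median _x_at member by -0.22. The _at members were also the dimmest, with a median level of 6.59 against 7.18 for _a_at.

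Among single members the largest differences were seen downwards, in probe sets that were bright in C57BL/6. All 8 had a C57BL/6 mean above the receptor level of 8.83 and a Balb/c mean below that of 9.22. The mean Balb/c level behind each size is thus not above the receptor level, which Map2 did not pass either. In Balb/c 200-1 alone, where the receptor level was 9.39, some of the 8 lay above it. The largest of all was that of 1454611_a_at, which was at 4.69, 3.87, 10.9, 4.13 and 8.69 in the Balb/c arrays. In C57BL/6 it ran from 9.79 to 13.6 with a median of 12.4. Thus 3 Balb/c arrays lay at the dim end of the scale, 400-2 lay between, and Balb/c 200-1 lay within the C57BL/6 range. The difference was -5.83 ± 0.818 (SE) relative to the median probe set (limma adjusted p = 0.000126), and -4.51 with the number format as a block (adjusted p = 0.0311).

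1451316_a_at was at 5.46, 5.29, 10, 5.77 and 5 in Balb/c and from 6.41 to 12.6 in C57BL/6. Here the array of each strain nearest to the other was the 200-1 array, Balb/c at 10 and C57BL/6 at 6.41. 1435732_x_at was at 6.57, 7.23, 11.7, 6.86 and 9.14 in Balb/c and from 10.8 to 13.9 in C57BL/6, a relative difference of -4.87 ± 0.608 (adjusted p = 6.05e-05). 1436853_a_at was the only one of the 8 largest downward differences without overlap of the strains, with Balb/c arrays between 6.12 and 9.65 and C57BL/6 arrays between 10.4 and 13.5. Its difference was -4.43 ± 0.552 (adjusted p = 6.12e-05), and with the block -3.2 (adjusted p = 0.0176).

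The other 4 of these 8 were 1455571_x_at (-4.75), 1455816_a_at (-4.66), 1434848_at (-4.53) and 1436889_at (-4.48), all relative differences. Of the 8, 6 had a suffix other than _at, while 6.11% of all members did. Their spread was wide in Balb/c, with an SD of 3.17 for 1454611_a_at and 3.15 for 1455816_a_at, against 1.02 and 0.596 in C57BL/6. The fit used 1 variance for both strains, and each of the 8 still passed with a variance factor per strain. That factor was set over all probe sets together, so it does not test the unequal spread of a single one. With the number format as a block 7 of the 8 passed, and 1451316_a_at did not (adjusted p = 0.0533).

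The largest upward differences were smaller and began from dim levels in C57BL/6. None of the 8 had a C57BL/6 mean above the receptor level. For 5 of them, among them 1441833_at and 1420267_at, the mean of neither strain was above it. Map2 did not pass the receptor level either, so for these 5 a level below it does not show that a transcript is absent. 1441833_at was at 7.17, 9.98, 6.56, 9.22 and 7.59 in the Balb/c arrays and from 3.69 to 6.44 in C57BL/6, with a median of 4.42, so the strains did not overlap. Its relative difference was 3.13 ± 0.496 (SE; limma adjusted p = 0.000126), and 2.75 with the number format as a block (adjusted p = 0.0255). 1420267_at was at 7.01, 9, 6.54, 7.35 and 7.07 in Balb/c and between 2.79 and 6.47 in C57BL/6, again without overlap, with a difference of 2.82 ± 0.53 (adjusted p = 0.000395). The highest C57BL/6 value of both probe sets was that of the 200-1 array.

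The highest means in Balb/c among these 8 were 11.78 and 11.26. 1437867_at was at 12.3, 12.3, 10.4, 11.6 and 12.2, and in C57BL/6 it ran from 5.79 to 12.4 with a median of 8.67, C57BL/6 200-1 being the highest array of all. 1438049_at was at 12.2, 10.8, 10.1, 11.5 and 11.8 in Balb/c and at 11.4 in C57BL/6 200-1, while the other C57BL/6 arrays lay between 7.22 and 8.7. It differed by 2.87 ± 0.494 (adjusted p = 0.00021), and by 2.43 with the block (adjusted p = 0.0378).

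The other 4 were 1457572_at (3.03), 1430633_s_at (2.89), 1444698_at (2.86) and 1441168_at (2.80). With the block 1441833_at and 1438049_at passed among the 8, and the adjusted p of the other 6 ran from 0.059 for 1430633_s_at to 0.0919 for 1437867_at. All 16 differences kept their call after quantile normalisation, after range scaling and with dendrites per pool as a covariate. They also kept it with the variance factor per strain and without any 1 array. They kept it without the 3 arrays between the strains too. Those arrays were picked for standing near the other strain, so leaving them out favours wider differences and is no check. Within the longer number format none of the 16 differences passed.

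**Figure D4:**
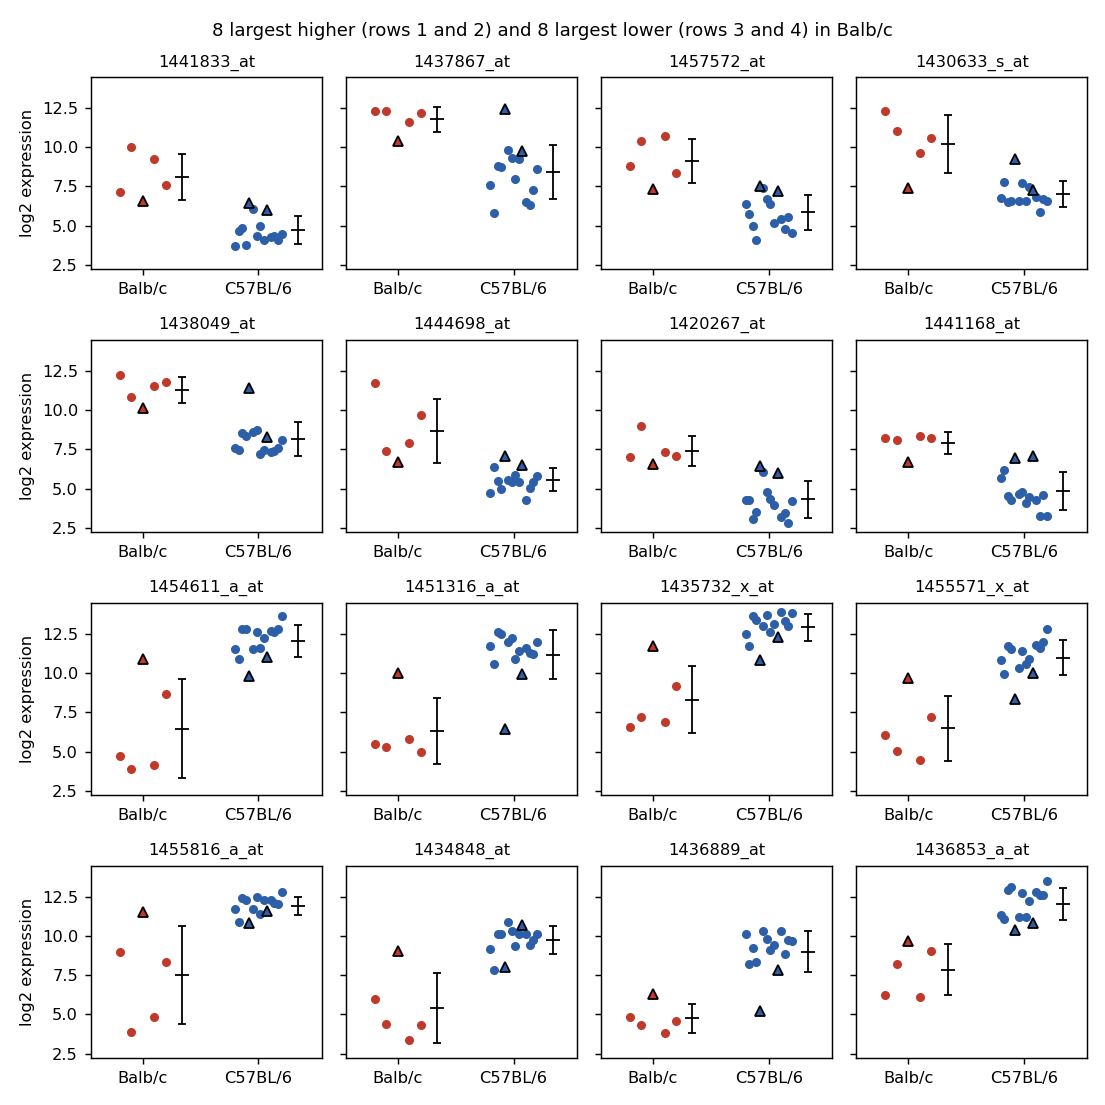
Log2 expression of 16 unnamed probe sets in each array, red for the 5 Balb/c arrays and blue for the 14 C57BL/6 arrays, with triangles for Balb/c 200-1, C57BL/6 200-1 and C57BL/6 400-1 and bars for the mean and SD. The upper 8 panels hold the largest differences upwards in Balb/c, from C57BL/6 means between 4.32 and 8.44, and the lower 8 panels the largest downwards, where Balb/c 200-1 lies nearest to C57BL/6 in every panel.

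The next unnamed probe sets had the smallest p once the number format was a block in the model. Upwards, 1446276_at was at 9.85, 10.9, 7.93, 8.89 and 9.11 in Balb/c and between 5.55 and 7.22 in C57BL/6, without overlap. The 4 C57BL/6 arrays of the longer format averaged 6.93. Its relative difference was 2.74 ± 0.348 (SE; limma adjusted p = 2.74e-05, the smallest among the members), and 2.25 with the block (adjusted p = 0.011). 1427363_at and 1459484_at followed with 2.3 and 1.53 in the block fit (adjusted p = 0.0115 and 0.0164), also without overlap. Downwards, 1417331_a_at was at 4.39, 4.3, 5.81, 5.35 and 4.15 in Balb/c and between 6.32 and 9.82 in C57BL/6, and differed by -2.67 with the block (adjusted p = 0.0121). 1427481_a_at (-3.41, adjusted p = 0.0149) and 1429625_at (-2.41, adjusted p = 0.0161) were the other 2.

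The number of dendrites in a pool, which sets how much RNA entered amplification, gave no called member. For the slope per doubling of dendrites with strain as a covariate, limma called 0 members, beside 0% of all probe sets, and the smallest adjusted p among members was 0.714. At an unadjusted p under 0.05 the level fell with pool size for 393 members (4.29%), beside 2.94% of all probe sets, and rose for 111 (1.21%), beside 1.93%. The slope was negative for 57.6% of members and 52.2% of all probe sets, and after quantile normalisation for 54.9% and 49.3%. The median slope was -0.04 per doubling for members and -0.01 for all.

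Within C57BL/6, 400 against 100 dendrites gave 0 called members, beside 0% of all probe sets, with a smallest adjusted p of 0.284. Unadjusted, 467 members (5.1%) were lower at 400, beside 3.48% of all, and 99 (1.08%) higher, beside 2.35%. The difference was negative for 60.1% of members and 53.8% of all probe sets. With the number format as a block 3 members (0.0328%) were called, beside 8 of all probe sets (0.0178%). All 3 were lower at 400 dendrites and were named after their values were seen. 1427822_a_at averaged 9.93 at 100 dendrites and 7.66 at 400, a block difference of -2.71 ± 0.353 (SE; adjusted p = 0.017). 1432620_at averaged 8.59 and 6.33 (-2.6 ± 0.37, adjusted p = 0.0282) and 1444349_at 7.32 and 4.95 (-2.74 ± 0.401, adjusted p = 0.0303). Without the block their adjusted p lay between 0.288 and 0.394.

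The member with the smallest p for both pool size tests was 1445040_at. In C57BL/6 it averaged 8.02 ± 0.546 (SD, n = 4) at 100 dendrites, 7.18 ± 0.81 (n = 5) at 200 and 5.93 ± 0.266 (n = 5) at 400, and the arrays of 100 and 400 dendrites did not overlap. In Balb/c it was at 7.21 and 8.53 at 100 dendrites, 5.75 at 200 and 6.93 and 6.81 at 400. The slope was -0.88 ± 0.191 (SE) per doubling (limma adjusted p = 0.714) and 400 minus 100 dendrites in C57BL/6 -2.09 ± 0.395 (adjusted p = 0.284). 1458263_at and 1440722_at had slopes of -0.97 and -1.01, and 1455967_at and 1443394_at were lower at 400 in C57BL/6 by -1.62 and -2.12. None of these passed after adjustment. Upwards, 1444452_at averaged 3.3 at 100 dendrites, 4.05 at 200 and 4.54 at 400 in C57BL/6, with a slope of 0.64 ± 0.161 (adjusted p = 0.788). 1458813_at and 1458787_at had slopes of 0.53 and 0.71, and 1418281_at, 1453698_at and 1421033_a_at were higher at 400 dendrites by 1.35, 1.58 and 1.67.

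Whether the slope differed between the strains was tested as an interaction, and limma called 0 members, beside 0% of all probe sets. Unadjusted, 394 members (4.3%) passed, beside 4.2% of all probe sets, which is at the background. The smallest p belonged to 1440750_at, which was at 9.65 and 11.2 in the Balb/c arrays of 100 dendrites, 5.38 at 200 and 5.99 and 6.05 at 400. In C57BL/6 it averaged 4.98, 4.68 and 5.86 at the 3 pool sizes, so it was high in the 2 smallest Balb/c pools alone among the 19 arrays. The difference in slope was -2.67 ± 0.557 (SE; adjusted p = 0.639). 1445226_at (-1.88) and 1453087_at (-1.6) were also highest in the Balb/c pools of 100 dendrites. In the other direction 1456780_at was at 7.24 and 6.03 at 100 dendrites, 9.22 at 200 and 11.4 and 9.83 at 400 in Balb/c, while C57BL/6 averaged 8.77, 9.2 and 8.46, a difference in slope of 2.17 ± 0.467 (adjusted p = 0.639). 1440557_at (1.38) and 1458444_at (1.25) were the next 2. The single Balb/c array at 200 dendrites and the pairs at 100 and 400 limit this comparison.

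**Figure D5:**
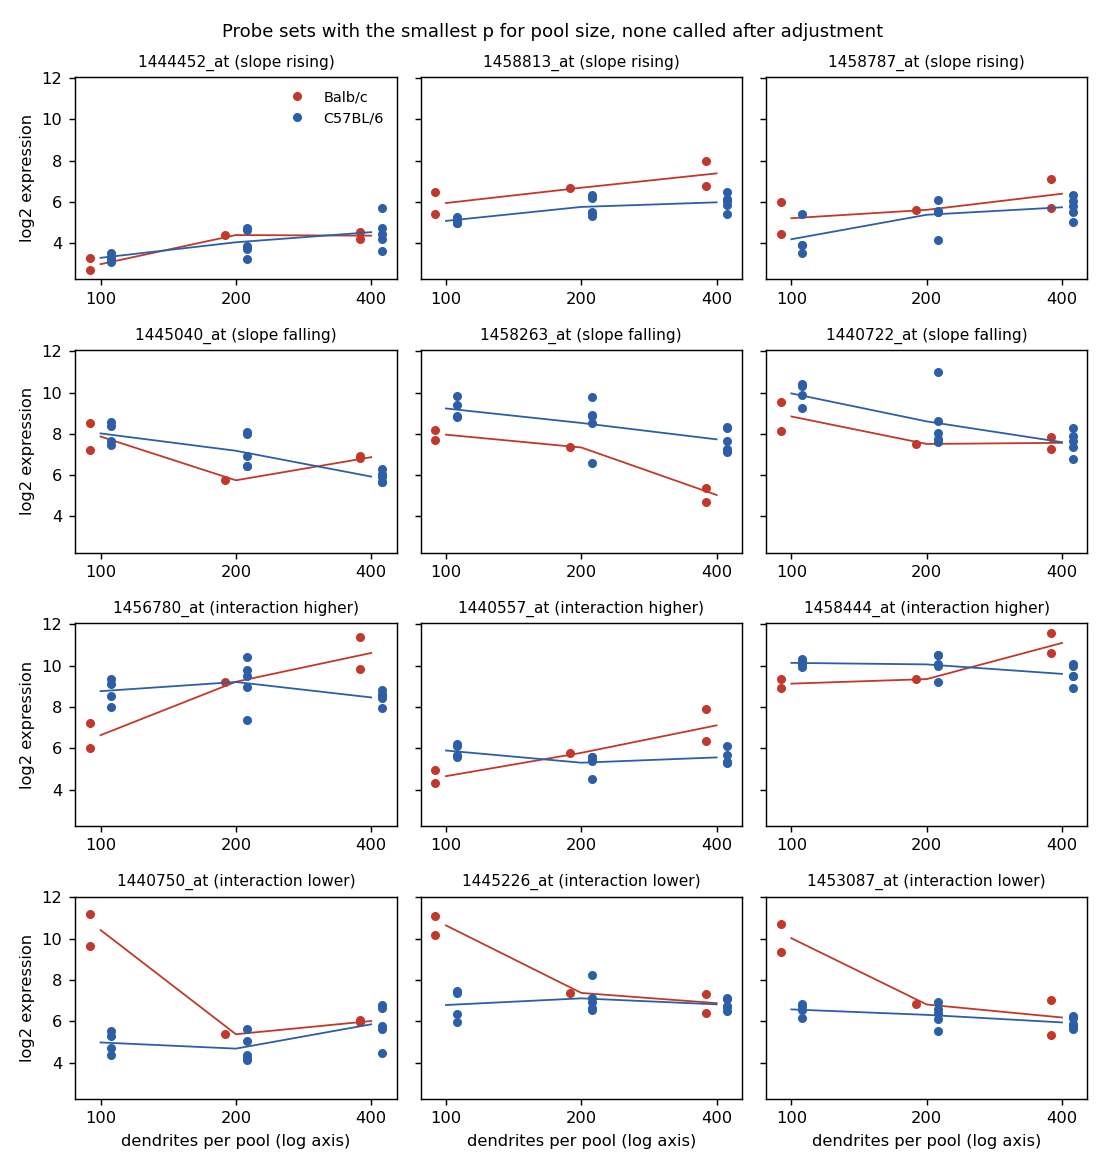
Log2 expression of 12 unnamed probe sets against dendrites per pool (log axis), red for the 5 Balb/c arrays and blue for the 14 C57BL/6 arrays, with lines through the means of each pool size. The upper 2 lines of panels show the smallest p for a common slope, such as 1445040_at, which falls from 8.02 to 5.93 in C57BL/6, and the lower 2 those for a slope that differs between strains, such as 1440750_at, which is high in the 2 Balb/c pools of 100 dendrites, and none was called after adjustment.

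The spread between arrays was close in unnamed and named probe sets. The median SD of a member between arrays was 0.717 in Balb/c and 0.658 in C57BL/6, and that of a probe set with 1 symbol 0.723 and 0.646. Over the members 2 arrays of Balb/c correlated at 0.746 on average, 2 of C57BL/6 at 0.831 and 2 of different strains at 0.694, while the probe sets with 1 symbol gave 0.729, 0.849 and 0.655. Members with neighbouring ID numbers could read 1 transcript. The 264 pairs of consecutive members with different suffixes had a median correlation over the 19 arrays of 0.197, the 4107 pairs with equal suffixes 0.113 and the 2858 pairs of consecutive probe sets of 1 gene 0.108, where 26656 consecutive pairs of different symbols gave 0.0302. The shares of pairs over 0.8 were 3.41%, 0.511%, 4.58% and 0.777% in the same order. By that share the pairs with equal suffixes were nearer to pairs of different symbols than to pairs of 1 gene. Members that are not neighbours were not compared. Among the probe sets named above, 1447483_s_at and 1447484_x_at were such neighbours and correlated at 0.857, so they may not be separate measurements.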

How the data were processed

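The deposited values are log2 expression per probe set, which the authors made with RMA (2.0 in the submitters' processing notes), taking the upper decile of a set's probes. Their centring and range scaling were not in these values. No genome build was given in the sources used here. Symbols came from the platform annotation, and the 64 control probe sets were left out. No filter on dim probe sets was used, and 0 columns belonged to no sample. The class of probe sets described and the lists were chosen with earlier results of these data known, though the rule for a member uses no measured value. Differences, Balb/c minus C57BL/6, were fitted with limma 3.58.1 (lmFit, eBayes; R 4.3.3) on the values as deposited with strain as the only term, adjusted by Benjamini-Hochberg over 45037 probe sets at 0.05, and are printed relative to the median probe set unless called as deposited. The SE, p-values and calls belong to the difference as deposited, tested against 0, and the median was subtracted only for printing. Pool size was fitted as a slope per doubling with strain, as an interaction and as 400 against 100 dendrites in C57BL/6. Named were the 8 largest called differences in each direction with all Balb/c arrays on 1 side of the C57BL/6 mean, the 3 smallest p in each direction for the block and pool size fits, and the 6 highest ranks. The number of arrays limits precision. Fits were tested on simulated data. Alternatives covered scaling, filters, variance, blocks and arrays left out.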

Additional observations from a re-analysis of the deposited data

Results flagged for a closer look

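Among 196 groups of 4 or 5 arrays looked at for named probe sets and class measures, 12 (6.12%) held 1 array far from the others, where chance gives about 1 in 20. Balb/c 200-1 accounted for 5 of them. In that array the median of the unnamed probe sets was 6.61 (next array 6.91), their gap to probe sets with 1 symbol -0.205 (next 0), and their share of the top 5% was 15.5% (next 19.3%). It was also at 6.69 for 1441168_at (next 8.1) and at 10 for 1451316_a_at (next 5.77), each time on the side of C57BL/6.

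C57BL/6 200-1 stood apart from the other pools of 200 dendrites in 4 cases, at 7.08 for 1444698_at (next 5.87), 6.97 for 1441168_at (next 4.76), 6.41 for 1451316_a_at (next 10.9) and 5.25 for 1436889_at (next 9.1), each time on the side of Balb/c. C57BL/6 400-1 stood apart among pools of 400 dendrites at 6.03 for 1441833_at (next 4.46) and 8.46 for 1421033_a_at (next 6.84). C57BL/6 200-3 was low for 1440557_at, at 4.51 (next 5.39).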

How the results depend on the processing

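The 2838 members called between strains (2339 higher and 499 lower in Balb/c) became 104 (63 and 41) with a block for the number format. Within its longer format 0 were called. In pools of 100 dendrites they were 892 (642 and 250), 9.74% beside 11.4% of all probe sets. In pools of 400 they were 1364 (1143 and 221), 14.9% beside 17.2%. Among probe sets above the median level they were 1421 (1092 and 329), 35.2% beside 38.7%. Without Balb/c 100-2 and 400-1 they were 970 (740 and 230), 10.6% beside 11.4%. These arrays held the fewest distinct values, 1569 and 2052, against 2603 to 5556 in the others, so more of their probe sets shared a value. At an adjusted p under 0.001, 1 member was called without them. With all arrays kept, 217 members (139 and 78) were called at that threshold, beside 1678 of all 45037 probe sets. With the methods' t-test at that threshold they were 26 (12 and 14), beside 241 of all. With the variance factor per strain 307 were lower at 0.05, 3.35% beside 8.45% of all. Without 1 array they ran from 1904 (without Balb/c 400-1, 20.8% beside 22.4%) to 3276 (without C57BL/6 200-1, 35.8% beside 37.3%). Higher ones ran from 1552 (16.9% beside 13.8%) to 2678 (29.2% beside 24.3%). Lower ones ran from 352 (3.84% beside 8.65%) to 641 (7% beside 12.9%). Without the 3 arrays between the strains, a choice that favours more calls, they were 3857, 42.1% beside 43.6%. With pool size and replicate number as a replicate block 0 members were called. An unadjusted p under 0.05 was found there for 1531 (16.7%), beside 18.1% of all probe sets. The deviations of same-numbered arrays of the strains correlated at -0.188 to 0.0776, so the arrays share only a number. Several of these fits used fewer arrays, and the cause of these changes was not tested.

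Of the 16 differences named for their size 9 kept their call with a block for the number format (7 lower and 2 higher). The other 6 named strain differences were chosen by their p with that block. All 22 lost their call in the longer format alone and with the replicate block, and none reversed. Pool size called 0 members in every slope fit. For 400 against 100 dendrites 3 were called once the number format was a block, beside 8 of all probe sets. Without 1 array that contrast called 0 to 1 (1 without C57BL/6 100-1, beside 8 of all). The interaction called 0 to 10 without 1 array (10 without Balb/c 100-2, beside 88 of all). A replicate block for the slope and for 400 against 100 dendrites called 0 members too. Without 1 array the median level ran from 6.85 to 6.94 in Balb/c and from 6.48 to 6.52 in C57BL/6, the share above the receptors from 9.61% to 12% and from 9.81% to 10.6%, and the share of the top 5% from 19.1% to 20.3% and from 14.6% to 15.1%. Without _s_at and _x_at probe sets the last was 17.1% in C57BL/6.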
